A study of Mus musculus with 6 samples.

Results

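Cholesterol synthesis and its control by the SREBP transcription factors were followed in mouse retina through 26 genes, chosen by symbol from a list of mevalonate and sterol synthesis enzymes and SREBP regulators. All 26 symbols were found among the 24346 genes of the deposited tables, and all 26 passed the filter of a mean of at least 0.5 FPKM (fragments per kilobase, scaled for library size, a level per transcript length). The libraries were made from whole retina of mice at postnatal day 12. Of the 6 libraries, 3 were controls (Panky+/-;Panky-like+/-;Nrl-/-) and 3 were triple-deficient (Panky-/-;Panky-like-/-;Nrl-/-). Both groups were thus labelled as lacking Nrl, the factor without which would-be rods become cone-like. The controls themselves carried 1 mutant allele of Panky and of Panky-like. Panky is Ankrd33, a photoreceptor co-repressor with ankyrin repeats, and Panky-like is read here as the paralog Ankrd33b, although the labels give no gene symbol. The labels do not give the sex of the mice, how many retinas went into a library, or which libraries form the 3 littermate pairs that the study's design text mentions. Without a group labelled as keeping Nrl or both wild-type Panky genes, every value below describes retina labelled Nrl-/- only.

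Cholesterol is built from acetyl-CoA through mevalonate, farnesyl diphosphate, squalene and lanosterol. When sterols in the endoplasmic reticulum are low, the escort protein SCAP carries SREBP to the Golgi, where it is cut and released to activate the enzyme genes. When sterols are high, the INSIG proteins hold SCAP back, so that transcripts of the enzyme genes are commonly read as an index of SREBP activity. The retina makes part of its own cholesterol, Müller glia and photoreceptors among its sources, and inherited loss of Dhcr7, the last enzyme of one branch, impairs retinal function in humans.

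Ankrd33b averaged 33.8 ± 1.45 FPKM in the controls against 1.5 ± 0.265 FPKM in the triple-deficient libraries, and Ankrd33 106 ± 2.97 and 55.6 ± 4.66 FPKM (mean ± SD, n = 3 per group here and below, controls first). Both were thus lower in the libraries labelled -/- than in those labelled +/-, and Ankrd33 kept more of its level than Ankrd33b. Transcripts of Nrl were present in all 6 libraries, at 38.3 to 49.2 FPKM in controls and 51.3 to 53.7 FPKM in triple-deficient libraries. The loss of Nrl therefore rests on the labels and was not tested. Summed over 10 cone markers, levels were 6392 to 6526 FPKM in controls and 5935 to 6525 FPKM in triple-deficient libraries. Of these markers, Gngt2 and Opn1sw were the most abundant. The 14 Müller glia markers summed to 1959 to 2085 and 1977 to 2043.5 FPKM, with Glul and Car2 the most abundant. Relative to control 1, triple-deficient 3 was the shallowest library (0.804 of its depth) and triple-deficient 1 the deepest (1.21), as estimated from the steps of low values. In whole retina, fewer cells of a type and less RNA per cell cannot be told apart.

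All 26 genes were expressed, over a wide range. Scap, the SREBP escort, was the highest at a mean of 68.8 FPKM over the 6 libraries, above 92.5% of the 14325 tested genes. Hmgcs1, the cytosolic HMG-CoA synthase of the early mevalonate pathway, followed at 60.7 FPKM and Fdps, the farnesyl diphosphate synthase, at 41.2 FPKM. Hsd17b7, the 3-ketosteroid reductase of the later pathway, was the lowest at 3.89 FPKM, above 24.5% of tested genes. The median of the gene means was 21.9 FPKM over the 8 mevalonate genes and 17.6 FPKM over the 3 genes from squalene to lanosterol. It was 13.1 FPKM over the 9 genes from lanosterol to cholesterol. The medians thus fell along the route, but the gene means overlapped widely, at 12.0 to 60.7, 12.0 to 23.3 and 3.89 to 18.3 FPKM. Within a gene the libraries were close, since the highest library exceeded the lowest by 1.09-fold (Insig2) to 1.27-fold (Srebf1).

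**Figure D1:**
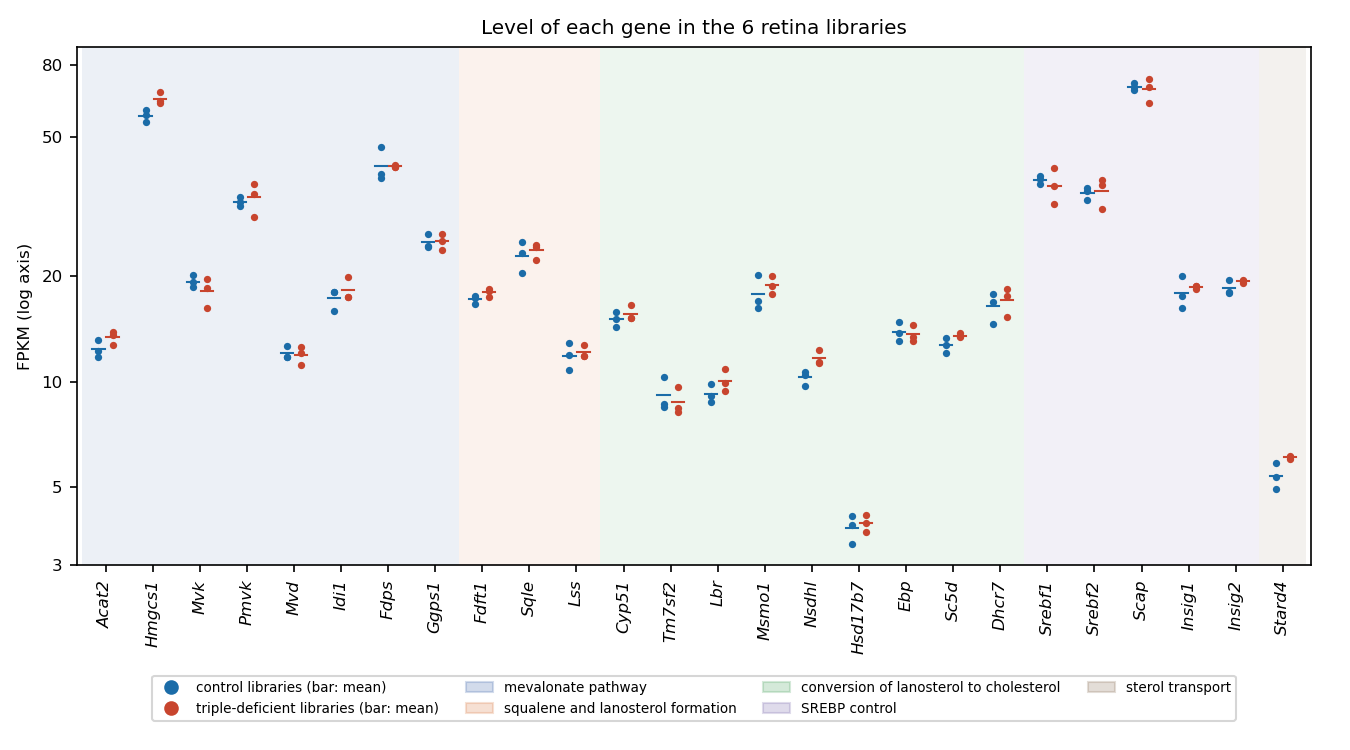
FPKM of each of the 26 genes (log axis) in the 3 control and 3 triple-deficient libraries, with 1 point per library and a bar at each group's mean, ordered by step of the pathway. Scap and Hmgcs1 lie highest and Hsd17b7 lowest, and the groups separate completely only for Hmgcs1, Nsdhl, Sc5d and Stard4.

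The comparison of genotypes asks whether the pathway differed when both Panky genes were lost. None of the 26 genes passed limma's threshold of an adjusted p below 0.05, against 0.0279% of all tested genes (4 of 14325). At an unadjusted p below 0.05 there were 2, Hmgcs1 and Nsdhl, which is 7.69% of the 26 against 5.09% of all tested genes. All 26 intervals (95% confidence, limma) of the log2 change in FPKM + 1, taken as triple-deficient minus control, lay between -0.25 and 0.31. No interval therefore reached a change of 1.5-fold in FPKM + 1, and the widest bound was 1.24-fold. The same limit held for 96.8% of all tested genes.

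Small positive changes were the more frequent ones. The log2 change was above 0 in 19 of the 26 genes (73.1%, against 51.8% of all tested genes), with a median of 0.049 against 0.0034 over all tested genes. The groups did not overlap, triple-deficient being higher, for 4 genes (15.4%, against 4.86% of all tested genes), and for none with triple-deficient lower, against 5.64%. These counts are descriptions, because the genes of one pathway are not independent. The median depended on 2 control libraries. It was 0.019 without control 1 and 0.077 without control 2, and without control 1 none of the 26 genes had an unadjusted p below 0.05. Without triple-deficient 3 the median was 0.040 with 20 genes above 0, and Hmgcs1 alone had an unadjusted p below 0.05. Among marker lists of other cells, log2 changes were above 0 for 8 of 10 genes of endothelial and mural cells (median 0.053) and 8 of 10 of bipolar cells (0.017). They were above 0 for 1 of 10 genes of microglia and macrophages (median -0.071) and 2 of 9 tested genes of the pigment epithelium (-0.24). The medians of the remaining lists were closer to 0. Above 0 were 9 of 14 genes of Müller glia (median 0.0016) and 4 of 10 of cone-like photoreceptors (-0.0077). For rods it was 3 of 8 tested genes (-0.0037), and for astrocytes, oligodendrocytes and lens 2 of 6 (-0.0013). The part of these cells in the members' values was not tested.

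**Figure D2:**
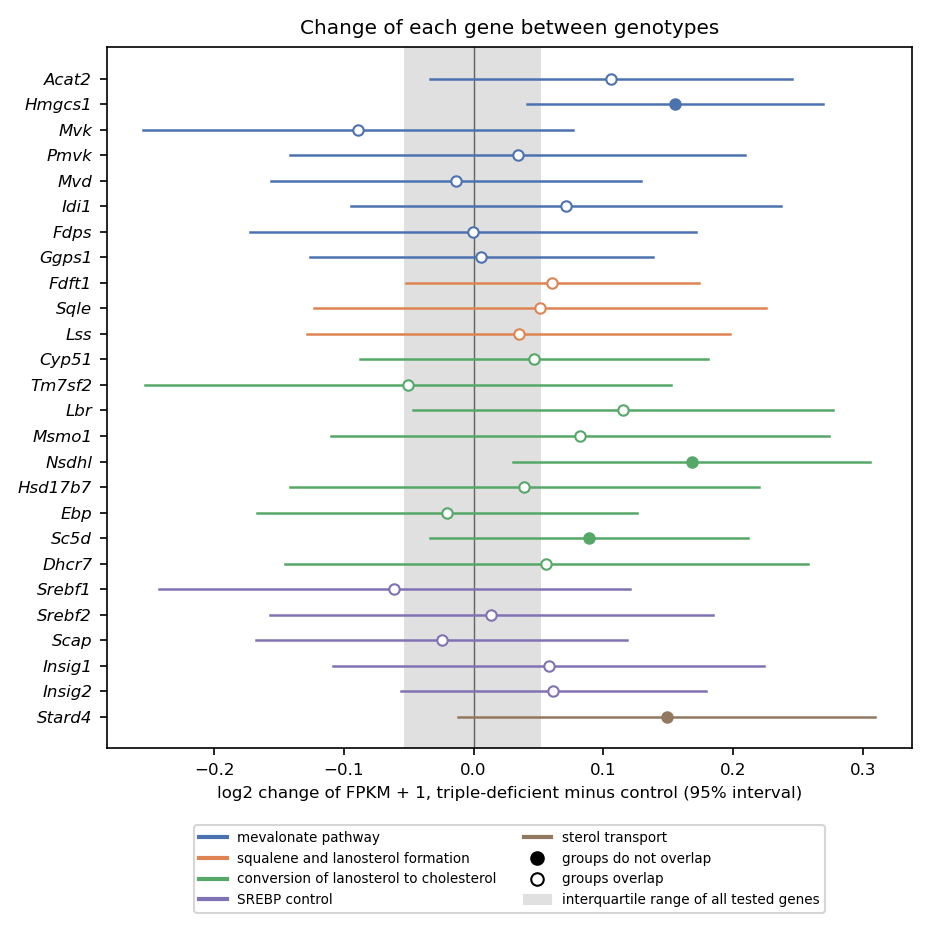
Log2 change of FPKM + 1 (triple-deficient minus control) of each gene with its 95% confidence interval from limma, coloured by step; filled points mark groups that do not overlap, and the grey band is the interquartile range of all tested genes. Of the 26 points, 12 lie above the band and 2 below it, and no gene passed the threshold over all genes.

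Among the mevalonate genes, Hmgcs1 had the largest change. It stood at 55.02, 57.6 and 59.6 FPKM in controls 1, 2 and 3 and at 62.2, 63.1 and 66.8 FPKM in triple-deficient 1, 2 and 3. Every triple-deficient library was above every control. The means of 57.4 ± 2.27 and 64.0 ± 2.43 FPKM differed 1.12-fold (log2 change 0.16, SE 0.050, limma adjusted p = 0.853). Acat2, the cytosolic thiolase that supplies acetoacetyl-CoA, was at 12.4 ± 0.699 and 13.4 ± 0.615 FPKM, and its groups overlapped. Idi1, the isomerase that makes dimethylallyl diphosphate, was at 17.3 ± 1.21 and 18.2 ± 1.42 FPKM.

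The groups overlapped for the kinases and the decarboxylase between mevalonate and isopentenyl diphosphate, and their difference from Hmgcs1 was not tested. Mvk, mevalonate kinase, was at 19.3 ± 0.794 and 18.1 ± 1.72 FPKM, with the lowest log2 change of the 26 (-0.089, SE 0.072, limma adjusted p = 0.956). Without triple-deficient 3 it was -0.017 and no longer the lowest. Pmvk, phosphomevalonate kinase, stood at 32.5, 31.7 and 33.6 FPKM in the controls and at 29.5, 34.4 and 36.7 FPKM in the triple-deficient libraries, which thus held both its lowest and its highest value. Mvd, the diphosphomevalonate decarboxylase, had means of 12.0 and 11.9 FPKM. Fdps was at 38.1, 39.0 and 46.8 FPKM in the controls and at 40.9, 41.0 and 41.4 FPKM in the triple-deficient libraries, so that control 3 alone was high. Ggps1, which makes geranylgeranyl diphosphate for protein prenylation, had equal means within error, 24.996 ± 1.21 and 25.1 ± 1.33 FPKM.

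The 3 genes that lead from farnesyl diphosphate to lanosterol all had changes slightly above 0. Fdft1, squalene synthase, was at 17.2 ± 0.475 and 17.99 ± 0.531 FPKM, Sqle, the squalene epoxidase and a rate-limiting enzyme, at 22.9 ± 2.25 and 23.7 ± 1.26 FPKM, and Lss, lanosterol synthase, at 11.9 ± 1.05 and 12.2 ± 0.518 FPKM. Their log2 changes ran from 0.035 to 0.061, and the groups overlapped for each.

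In the conversion of lanosterol to cholesterol, Nsdhl and Sc5d separated the groups. Nsdhl, the sterol dehydrogenase of C4 demethylation, stood at 9.73, 10.5 and 10.7 FPKM in controls 1, 2 and 3 and at 11.4, 11.3 and 12.3 FPKM in triple-deficient 1, 2 and 3. Its log2 change of 0.17 (SE 0.060, limma adjusted p = 0.866) was the highest of the 26. Nsdhl lies on the X chromosome, and Xist and Ddx3y marked controls 1 and 2 and triple-deficient 2 as female and the others as male. Within females Nsdhl was at 9.73 and 10.5 FPKM in controls and 11.3 FPKM in the triple-deficient library, and within males at 10.7 FPKM in the control and 11.4 and 12.3 FPKM in the triple-deficient libraries. With sex as a covariate, which was added after the data were seen, its log2 change was 0.15 (limma adjusted p = 0.998).

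Sc5d, the sterol C5 desaturase, stood at 12.7, 13.3 and 12.1 FPKM in the controls and at 13.5, 13.4 and 13.7 FPKM in the triple-deficient libraries. Its lowest triple-deficient library exceeded control 2 by little, and the log2 change was 0.089 (SE 0.053, limma adjusted p = 0.946). Without control 3 it was 0.057. The C4 oxidase gene Msmo1, whose product acts in the same demethylation as Nsdhl, was at 17.8 ± 2.12 and 18.8 ± 1.11 FPKM with control 3 the highest library of all 6. Cyp51, the lanosterol demethylase, was at 15.1 ± 0.738 and 15.6 ± 0.757 FPKM, and Dhcr7 at 16.4 ± 1.63 and 17.1 ± 1.58 FPKM. Hsd17b7 was at 3.83 ± 0.350 and 3.95 ± 0.220 FPKM.

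The sterol C14 reductase step has a pair of genes, and their values lay on opposite sides of 0. Lbr, which is also the lamin B receptor of the nuclear envelope, was at 9.21 ± 0.561 and 10.1 ± 0.742 FPKM (log2 change 0.12, or 0.063 without triple-deficient 3). Tm7sf2 was at 9.14 ± 1.01 and 8.78 ± 0.783 FPKM (log2 change -0.051). Neither passed, and their difference was not tested. Ebp, the sterol isomerase and the other X-linked gene of the pathway, was at 13.9 ± 0.849 and 13.6 ± 0.747 FPKM.

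The SREBP genes and their regulators showed no separation of the groups. Srebf2, whose product drives the cholesterol genes, stood at 32.9, 35.1 and 35.6 FPKM in controls 1, 2 and 3 and at 37.5, 36.3 and 31.0 FPKM in triple-deficient 1, 2 and 3. Triple-deficient libraries held both its 2 highest values and its lowest. Srebf1, whose products favour fatty acid genes, was at 37.8, 38.5 and 36.7 FPKM in the controls and at 40.6, 36.0 and 32.0 FPKM in the triple-deficient libraries. Scap was at 69.2, 67.7 and 71.0 FPKM and at 73.2, 69.4 and 62.2 FPKM. All 3 genes were thus highest in triple-deficient 1 and lowest in triple-deficient 3. Within a library the ratio of Srebf1 to Srebf2 varied little, from 0.991 to 1.15, and that of Scap to Srebf2 from 1.91 to 2.11.

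Insig1, a target of SREBP that closes the feedback loop, stood at 16.2, 19.98 and 17.6 FPKM in the controls and at 18.7, 18.4 and 18.8 FPKM in the triple-deficient libraries, all 3 of which fell between controls 3 and 2. Insig2 was at 18.5 ± 0.910 and 19.3 ± 0.212 FPKM. The ratio of Insig2 to Insig1 within a library was 0.898 to 1.11, so both INSIG genes were expressed at close levels. The spread among the triple-deficient libraries was small for both (0.176 and 0.212 FPKM) beside that among the controls (1.89 and 0.910 FPKM), a difference in spread that was not tested.

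Stard4, a cytosolic sterol transport protein and SREBP target, had the third non-overlapping change by size. It was at 4.96, 5.88 and 5.36 FPKM in controls 1, 2 and 3 and at 6.01, 6.10 and 6.15 FPKM in triple-deficient 1, 2 and 3. Control 2 came close to the triple-deficient libraries, and the log2 change was 0.15 (SE 0.070, limma adjusted p = 0.943). Without control 1 it was 0.098.

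Control 1 and triple-deficient 3 had the median deviations farthest from 0. Control 1 was the lowest library for 13 of the 26 genes, and triple-deficient 3 was the highest for 10 and the lowest for 6. The median deviation of the 26 genes from their own means over the 6 libraries was -0.074, -0.0044 and 0.0026 in controls 1, 2 and 3 and 0.035, 0.014 and 0.062 in triple-deficient 1, 2 and 3, on the log2(FPKM + 1) scale. The same median over all tested genes was within 0.0031 of 0 in every library. Markers of astrocytes, oligodendrocytes and lens summed to 38.4 FPKM in control 1 and to 22.7 to 26.9 FPKM in the other libraries. The part of these markers in the low values of control 1 was not tested.

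The log2 changes of the genes differed with base composition, whose part in them was not tested. Of the 26, 15 had a GC content below the median of all tested genes (49.8%, longest annotated transcript) and 11 above it. All 15 GC-poor genes had a log2 change above 0, with a median of 0.071, and 4 of the 11 GC-rich genes did, with a median of -0.014. All tested genes were split in the same direction, with medians of 0.025 in the GC-poor genes and -0.023 in the GC-rich ones. The shares of all GC-poor and all GC-rich genes above 0 were not counted, so the members' counts have no such reference. In triple-deficient 3 the median deviation was 0.087 for GC-poor and -0.11 for GC-rich members, and that library was the lowest of the 6 for 6 of the 11 GC-rich genes and for none of the GC-poor ones. Scap, Srebf1 and Srebf2, with 57.9% to 59.1% GC, are among those 6. In control 1 the medians were -0.14 and -0.027.

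With the GC and length trends removed from each library, the median log2 change of the 26 genes was 0.050, and 21 were above 0. The shares of all tested genes above 0 or without overlap were not counted in that setting. The medians of the GC-poor and GC-rich genes became 0.052 and 0.037. The groups of Hmgcs1 and Nsdhl still did not overlap, with log2 changes of 0.13 and 0.16 (limma adjusted p = 0.676 and 0.691), while those of Sc5d and Stard4 then overlapped. Control 1 kept a median deviation of -0.073, and that of triple-deficient 3 was 0.034.

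**Figure D3:**
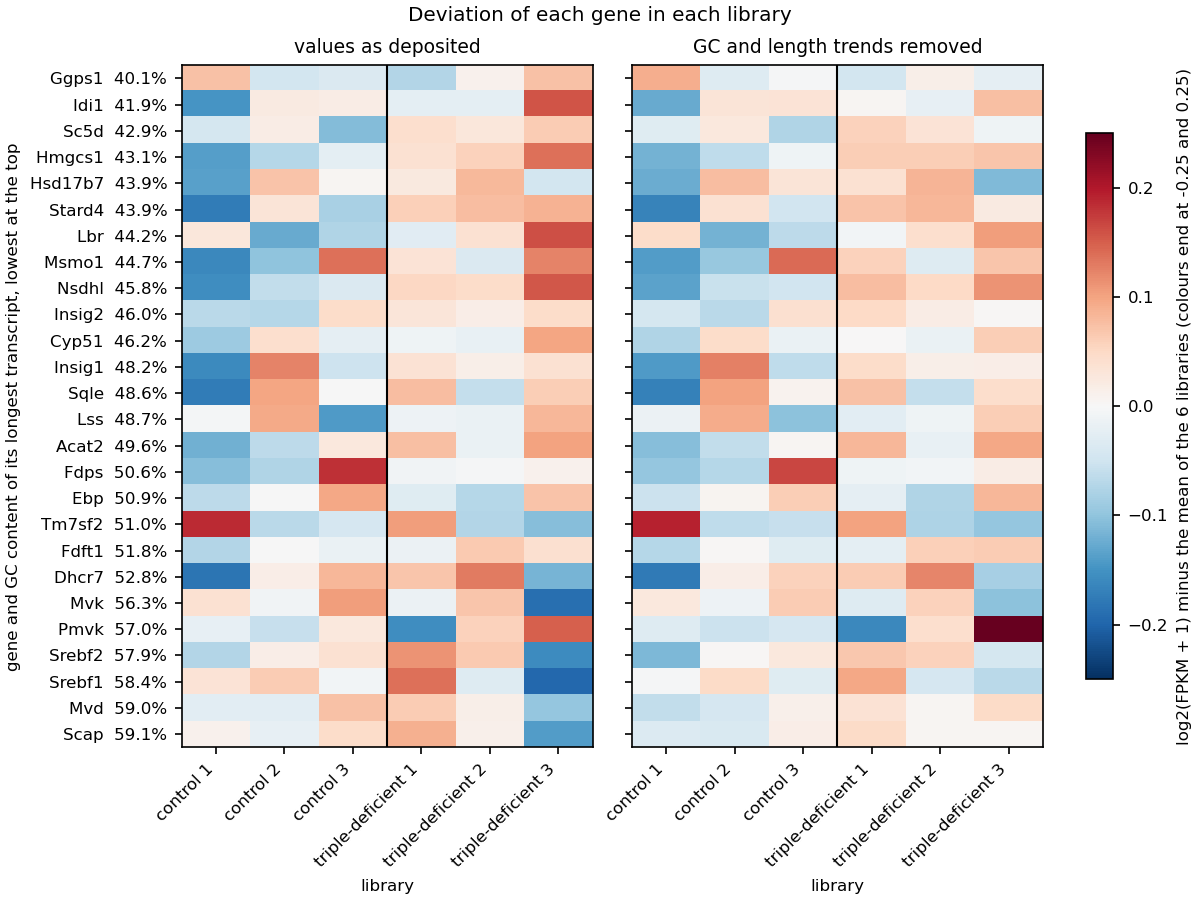
Deviation of log2(FPKM + 1) from the gene's mean over the 6 libraries (colour) for each of the 26 genes, ordered by GC content with the lowest at the top, as deposited (left) and with GC and length trends removed (right). As deposited, triple-deficient 3 is red for most GC-poor genes and blue for most GC-rich genes; control 1 is blue for most genes in both panels, and the colours end at -0.25 and 0.25.

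The 26 genes lie on 15 chromosomes (positions from NCBI's RefSeq table for GRCm38.p6, the mm10 build). Hmgcs1 spans chr13:119690351-119708260, Nsdhl chrX:72918521-72958528, Sc5d chr9:42251592-42264300 and Stard4 chr18:33199138-33213862. Srebf2 (chr15:82147269-82205379) and Sqle (chr15:59315092-59331193) share chromosome 15 with the targeted genes, Srebf2 at 18.9 Mb from Ankrd33.

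Promoter sequences came from a separate RefSeq promoter table of that build, in which 30 start sites of 22 members were matched; Fdft1, Fdps, Sqle and Stard4 were not matched there. SREBP acts with partners, above all NF-Y, which binds CCAAT, and Sp1, which binds GC boxes. In the 250 bases before the start site, CCAAT was found on either strand in 20 of the 22 genes (90.9%), against 39.5% of 17492 protein-coding genes. Counted by start site, it was in 70.0% of the members' windows against 35.4%. The GC box GGGCGG was also in 20 of the 22 genes, against 45.8% of protein-coding genes, and the E-box CACGTG in 5 genes (22.7%, against 7.61%). By start site the shares were 76.7% against 42.6% for the GC box and 16.7% against 6.63% for the E-box. The protein-coding genes were taken whether expressed in retina or not, while every member passed the expression filter. Expressed genes were not compared, so whether these gaps are particular to sterol genes among them was not tested. The sterol regulatory element, searched as TCACNCCAC on both strands, was in 1 gene, Hmgcs1, and in 1.2% of protein-coding genes. These matches describe letters and not binding, and a gene without one may hold another spelling or a site outside the window. No match of CCAAT, the E-box or the sterol regulatory element overlaps another of them in the windows printed here, and GC boxes are not marked.

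The promoters of the 3 genes with separated groups and a sequence in the promoter table are printed with those of Insig1 and Srebf2, the feedback genes whose groups overlapped. Each is the 250 bases before the start site, read 5′ to 3′ on the gene's strand in GRCm38.p6, and capitals mark CCAAT on either strand (ATTGG on the other one), the E-box and the sterol regulatory element. The windows are chr13:119690101-119690350 (plus strand) for Hmgcs1, chrX:72918271-72918520 (plus) for Nsdhl, chr9:42264301-42264550 (minus) for Sc5d, chr5:28071162-28071411 (plus) for Insig1 and chr15:82147019-82147268 (plus) for Srebf2.
Hmgcs1: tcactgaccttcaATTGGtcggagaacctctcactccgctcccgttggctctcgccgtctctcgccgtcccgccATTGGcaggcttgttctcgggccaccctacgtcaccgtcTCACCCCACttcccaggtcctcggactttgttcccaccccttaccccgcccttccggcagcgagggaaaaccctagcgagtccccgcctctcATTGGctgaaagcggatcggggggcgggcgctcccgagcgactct
Nsdhl: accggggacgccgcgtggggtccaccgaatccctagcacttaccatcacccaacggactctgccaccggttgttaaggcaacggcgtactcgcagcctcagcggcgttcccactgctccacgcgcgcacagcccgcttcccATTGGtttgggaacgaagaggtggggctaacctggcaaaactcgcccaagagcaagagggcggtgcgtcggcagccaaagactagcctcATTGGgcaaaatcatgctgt
Sc5d: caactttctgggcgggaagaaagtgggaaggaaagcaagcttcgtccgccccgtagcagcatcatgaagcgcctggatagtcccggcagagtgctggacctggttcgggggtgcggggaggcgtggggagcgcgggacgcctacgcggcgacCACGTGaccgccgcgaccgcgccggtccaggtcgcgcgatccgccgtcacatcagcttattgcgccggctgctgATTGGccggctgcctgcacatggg
Insig1: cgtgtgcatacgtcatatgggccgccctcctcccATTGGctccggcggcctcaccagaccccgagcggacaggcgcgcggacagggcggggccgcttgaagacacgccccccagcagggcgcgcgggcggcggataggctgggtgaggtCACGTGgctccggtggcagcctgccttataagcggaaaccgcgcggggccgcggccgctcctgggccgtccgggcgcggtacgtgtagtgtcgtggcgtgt
Srebf2: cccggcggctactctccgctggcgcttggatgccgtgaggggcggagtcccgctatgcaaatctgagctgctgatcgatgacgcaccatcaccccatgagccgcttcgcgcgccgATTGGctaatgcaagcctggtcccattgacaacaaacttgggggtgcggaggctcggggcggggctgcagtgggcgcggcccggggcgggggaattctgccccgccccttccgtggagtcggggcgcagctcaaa
Hmgcs1 holds 3 CCAAT matches, and its sterol regulatory element reads TCACCCCAC at -137 to -129 from the start site. Nsdhl holds 2 CCAAT matches and Sc5d, Insig1 and Srebf2 hold 1 each, while Sc5d and Insig1 each hold 1 E-box. Each promoter printed here holds CCAAT, as did 20 of the 22 genes, so these promoters cannot compare separated with overlapping groups.

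Of the other genes listed with sterol synthesis, 7 were tested and none passed limma's threshold or had an unadjusted p below 0.05 (median log2 change -0.024). The list mixes enzymes of the route with electron donors such as Por and Cyb5r3, so its median does not stand for the rest of the route. Por, the electron donor of Cyp51 and Sqle, was at 27.1 ± 1.53 and 25.1 ± 2.23 FPKM, and Cyb5r3, the cytochrome b5 reductase, at 30.3 ± 1.01 and 29.6 ± 1.54 FPKM.

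None of 17 genes of SREBP processing and sterol sensing passed, nor any of 15 genes of cholesterol uptake and other SREBP targets, and neither list held an unadjusted p below 0.05. Their medians were 0.011 and -0.0050. Nfya, a subunit of NF-Y, was at 14.6 ± 1.45 and 15.5 ± 0.475 FPKM, Paqr3, a Golgi tether of SCAP, at 10.5 ± 0.611 and 9.73 ± 0.854 FPKM, and Faf2, a factor of INSIG degradation, at 22.3 ± 0.751 and 23.2 ± 0.790 FPKM. Scarb1, a lipoprotein receptor, was at 78.6 ± 1.23 and 75.6 ± 2.26 FPKM, and Tmem97, a sterol-responsive membrane protein, at 10.6 ± 1.51 and 9.44 ± 0.973 FPKM.

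None of 17 tested genes of fatty acid synthesis passed or had an unadjusted p below 0.05, and their median was 0.0052. Scd2, the main stearoyl-CoA desaturase of neural tissue, was at 142, 146 and 151 FPKM in the controls and at 158, 151 and 154 FPKM in the triple-deficient libraries, in groups that did not overlap but nearly touched (limma adjusted p = 0.946). Acly, the ATP citrate lyase, was the other gene of this list without overlap, and it is named after its values were seen. It was at 126.6, 123.4 and 123.8 FPKM in the controls and at 127.01, 130.2 and 130.6 FPKM in the triple-deficient libraries. These are 2 of 17 genes, while 4.86% of all tested genes separated the groups with triple-deficient higher. Aacs and Acss2, which activate acetoacetate and acetate, were at 13.8 ± 0.607 and 17.8 ± 0.737 FPKM in the controls and at 12.5 ± 0.657 and 16.6 ± 1.002 FPKM in the triple-deficient libraries.

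The 15 tested genes of LXR signalling, efflux, storage and oxysterols had a median of -0.013, and none passed limma's threshold, but 2 had an unadjusted p below 0.05, in opposite directions (against 5.09% of all tested genes). Hsd3b7, a sterol dehydrogenase of bile acid synthesis that also acts on oxysterols, stood at 4.24, 4.09 and 3.72 FPKM in the controls and at 5.22, 5.33 and 4.71 FPKM in the triple-deficient libraries (log2 change 0.28, SE 0.074, limma adjusted p = 0.668). Apoe, the main apolipoprotein of glia, was at 630, 569 and 599 FPKM in the controls and at 545, 516 and 437 FPKM in the triple-deficient libraries (log2 change -0.27, SE 0.086, limma adjusted p = 0.853). Both genes separated the groups, where 4.86% of all tested genes did so with triple-deficient higher and 5.64% with it lower. Nr1h2, the LXR beta receptor, did as well, at 29.1, 29.2 and 30.0 FPKM against 27.9, 28.0 and 22.2 FPKM, with triple-deficient 3 far below the others. Apoe and Nr1h2 were also lowest in triple-deficient 3, with transcripts of 59.5% and 60.6% GC, and the part of base composition in their values was not tested.

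Of 15 genes of the isoprenoid branches that leave at farnesyl diphosphate, 12 had a log2 change above 0 (median 0.038; 51.8% of all tested genes were above 0), and none passed or had an unadjusted p below 0.05. Fntb and Fnta, the beta and alpha subunits of farnesyltransferase, were at 17.01 ± 1.08 and 35.5 ± 1.23 FPKM in the controls and at 18.4 ± 1.11 and 33.7 ± 1.37 FPKM in the triple-deficient libraries. Pggt1b, the beta subunit of the enzyme that adds geranylgeranyl groups, was at 11.7 ± 0.869 and 12.4 ± 0.317 FPKM.

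**Figure D4:**
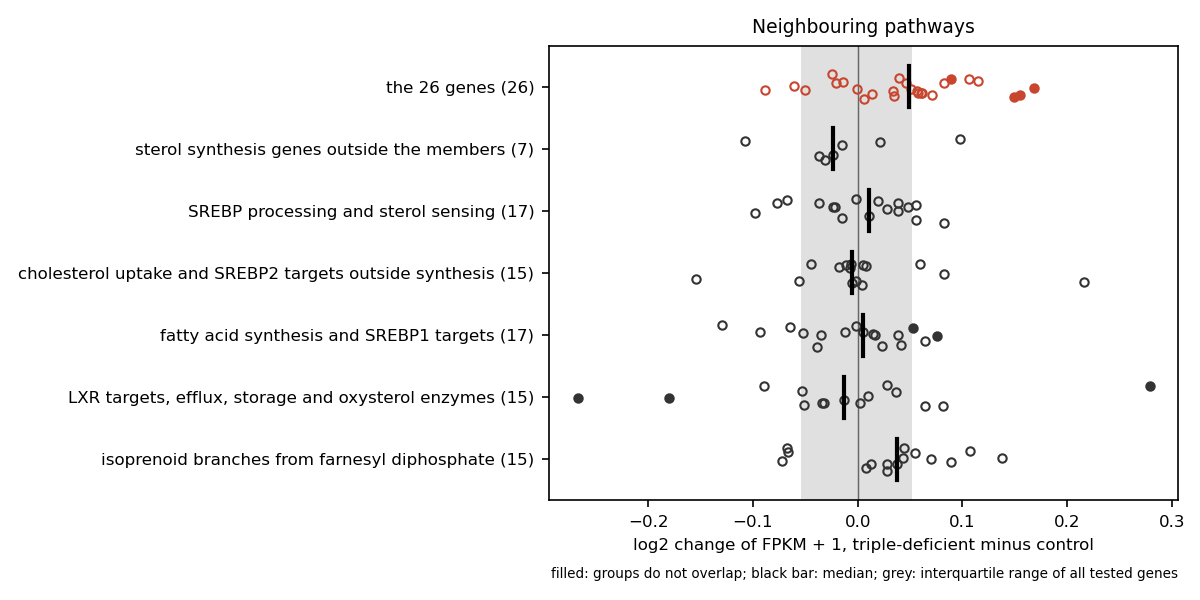
Log2 change of FPKM + 1 (triple-deficient minus control) of each tested gene of the 26 (red) and of 6 lists of neighbouring pathways, with 1 point per gene, filled where the groups do not overlap, a bar at the median, the number of genes in brackets and a grey band for the interquartile range of all tested genes. The medians of the 6 lists lie between -0.024 and 0.038 and that of the 26 genes at 0.049, while Hsd3b7 and Apoe lie farthest out on either side.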

How the data were processed

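RNA of whole retina was extracted with TRIzol and made into stranded mRNA libraries, per the labels' protocols. The authors deposited 1 FPKM value per gene and library; per the submitters' processing notes the build was mm10 and the tools were Cuffdiff, Cufflinks 2.2.1, Bowtie2 2.3.5.1 and TopHat2 2.1.1, with roles, annotation and scaling not given in the sources used here. FPKM values were used unscaled, since their sums (385962 to 396697) were close, and no counts were rebuilt.

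The genotype test was limma's (version 3.58.1, R 4.3.3; trended prior variance) on log2(FPKM + 1), two-sided, over the 14325 genes whose mean reached 0.5 FPKM, with Benjamini-Hochberg adjustment over all of them. This scale understates changes of low genes. The design text mentions 3 littermate pairs, but not which libraries form a pair or whether a library is 1 animal, so p-values cover only the spread between samples.

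The members, the 6 neighbouring lists and the marker lists were chosen with earlier results of these data known. Named genes are all members and, of each list, the 3 with the smallest p, except that some genes are not reported here by name; marker lists are given as sums. Further marker sums are in the closing section. GC content and length are those of the longest GENCODE M21 transcript and were known for 99.2% of tested genes. Erg28 was matched through its older symbol 0610007P14Rik, and Faxdc2 found no match. Alternatives changed the pseudocount, filter, model, scaling, GC and length trends, block, sex and library set.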

Additional observations from a re-analysis of the deposited data

How the results depend on the processing

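None of the 26 genes and none of the 6 neighbouring lists had a gene past limma's threshold under any of the 19 alternatives, and the smallest adjusted p of a member was 0.393 (Hmgcs1, array quality weights). The median of the 26 genes stayed between 0.019 and 0.077. Of 494 single-gene values, 458 kept their direction; 36 values of 14 genes changed sign, all between -0.039 and 0.090, and the cause was not tested. With array quality weights these were Mvd (0.023), Fdps (0.032), Ggps1 (-0.0089), Lss (-0.015) and Scap (0.014), with quantile normalization Fdps (0.0044), and with GC and length trends removed, with or without the replicate block, Mvd (0.060), Fdps (0.00029), Ggps1 (-0.036) and Scap (0.037). With 1 library left out, the changes ran from -0.021 to 0.13 for Dhcr7, from -0.061 to 0.023 for Ebp, from -0.054 to 0.090 for Fdps, from -0.029 to 0.045 for Ggps1, from -0.019 to 0.085 for Hsd17b7, from -0.0070 to 0.13 for Insig1, from -0.027 to 0.091 for Lss, from -0.048 to 0.031 for Mvd, from -0.032 to 0.12 for Pmvk, from -0.076 to 0.039 for Scap, from -0.023 to 0.11 for Sqle, from -0.14 to 0.022 for Srebf1, from -0.039 to 0.096 for Srebf2, from -0.12 to 0.030 for Tm7sf2. Without a change of sign they ran from 0.0091 to 0.079 for Cyp51, from 0.011 to 0.10 for Idi1 and from 0.022 to 0.17 for Msmo1.

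The replicate numbers were not shown to pair the libraries, since deviations of same-numbered libraries correlated at 0.0024 to 0.12 across 10195 genes, and other pairings reached 0.22. With the replicate block the count of genes past the threshold stayed at 0 of 26 (4 of all tested genes) and the median at 0.049. All genes past the threshold numbered 2 with no filter or robust shrinkage and 7, 10 and 11 without control 3, triple-deficient 1 or triple-deficient 3. Read totals are unknown, so depth gives no counting interval.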

Other observations

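Markers of other cells were summed per library as a description. Rod markers (10 genes) summed to 1798 to 1908 FPKM in controls and 1846 to 1902 FPKM in triple-deficient libraries. Most of each sum came from Sag and Gngt1, at means of 1291 and 309 FPKM over the 6 libraries, and 8 of the 10 genes passed the filter. Since all 6 libraries were labelled Nrl-/-, these sums do not measure a number of rods. Bipolar markers summed to 1119 to 1146 and 1137 to 1193 FPKM, with Pcp2 and Otx2 the most abundant, and endothelial and mural markers to 256 to 269 and 258 to 278 FPKM, with Slc2a1 and Kdr the most abundant. Microglia and macrophage markers summed to 71.0 to 80.2 and 71.1 to 74.4 FPKM. Markers of the pigment epithelium summed to 61.2 to 74.8 and 49.8 to 65.8 FPKM, led by Dct and Rrh. No gene of these lists passed limma's threshold.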
